A study of Mus musculus with 16 samples.

Results

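Heart libraries labelled CPT2 single KO, 3 in all, were placed beside the first cohort of the same series, which holds 5 wild type and 5 CPT2H-KO hearts, so that 13 of its 16 libraries were used. The genes compared were those whose symbol occurred once in each of the 2 deposited count tables, without mitochondrially encoded genes. They numbered 12311, out of 14138 rows in the first table and 17831 in the second. Each library's shared genes were ranked by their counts, and the rank was written as a percentile from 0 for the fewest counts to 100 for the most. A percentile rank was compared only for the same gene between libraries, since counts were not divided by gene length.

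The wild type group is labelled WT, with no allele named. The CPT2H-KO and CPT2 single KO groups carry the same genotype label, CPT2H-KO, and the series describes it as deletion of Cpt2 restricted to cardiomyocytes. Myh6-Cre and floxed alleles are named for the USP30 deletion only, and the sources used here do not name the driver of the Cpt2 deletion. No group compared here is labelled as lacking USP30, and age, sex and strain are not given. The 3 CPT2/USP30 double KO libraries, in which the Usp30 gene was also deleted, appear only as values beside the others. Wild type and CPT2H-KO counts stand in the first table and single KO counts in the second. Single KO and wild type libraries therefore differ in labelled genotype, cohort and table at once, and these cannot be told apart. Per the labels, single KO and CPT2H-KO libraries differ only in cohort and table.

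CPT2 lies at the inner mitochondrial membrane and turns long-chain acylcarnitines back into acyl-CoA, the substrate of beta-oxidation. The adult heart takes most of its energy from this pathway. Mitochondrial dysfunction in heart muscle is known to raise the integrated stress response, in which ATF4 drives genes of amino acid and one-carbon metabolism and secreted factors such as GDF15. It is also known to raise genes of the fetal and hypertrophic programmes.

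The targeted transcript was read first. Cpt2 (chromosome 4, 107903981 to 107923610, minus strand, GRCm38) had percentile ranks of 95.7, 95.9, 95.5, 94.9 and 91.8 in the wild type libraries. Its ranks were 82.7, 89.4, 89.1, 89.5 and 89.6 in the CPT2H-KO libraries, all below wild type. In the libraries labelled single KO they were 93.0, 92.1 and 91.7. The single KO values lay above every CPT2H-KO value, and 2 of the 3 lay inside the wild type range. Within the first table Cpt2 fell by 0.94 on the log2 scale in CPT2H-KO hearts (SE 0.15, adjusted p = 0.000971, edgeR quasi-likelihood test). When genes were ranked within 25 classes of like exon length and GC content, Cpt2 stood at 89.2 to 93.2 in wild type, 84.2 to 87.9 in CPT2H-KO and 87.6 to 88.1 in single KO libraries. By that scale every single KO library lay below every wild type library, with single KO 1 and 3 inside the CPT2H-KO range and single KO 2 just above it. The rank of Cpt2 therefore went against the label on one scale and not on the other, and no wild type library of the second table was used here. Directions drawn below rest on the label. Usp30 (chromosome 5, 114065461 to 114124720, plus strand), the mitochondrial deubiquitinase that is not targeted in these groups, had ranks of 43.2, 49.4 and 47.4 in the single KO libraries. Its range was 35.0 to 36.4 in wild type and 36.8 to 41.6 in CPT2H-KO, so all 3 single KO ranks were higher than both. Within the classes of length and GC content they were 32.6, 37.7 and 38.4, against 31.0 to 34.1 in wild type and 32.4 to 36.9 in CPT2H-KO, and single KO 1 lay inside both ranges.

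The tables differed in ways that touch every comparison. Totals were 11067969 to 13532716 counts per single KO library, of which the shared genes took at least 98.3%, and 54674422 to 132762776 counts per first-cohort library, of which they took 29.5% to 39.9%. Mitochondrially encoded genes, which are not among the shared genes, took 57.9% to 68.8% of first-cohort counts. The second table held 0 of these genes and the first held 27. Cardiomyocyte markers were abundant in all 13 libraries: the 12 had a median rank of 99.8 in single KO, 99.9 in wild type and 99.8 in CPT2H-KO libraries. Their summed level was 79280 to 83080 CPM of shared genes in single KO and 146700 to 178200 in first-cohort libraries. Ttn, 1 of the 12, was the most counted shared gene in the first cohort, with 9.1% to 11.8% of shared counts. In the single KO libraries the most counted was Myh6, with 4.2% to 4.7%, so Ttn took less than that. Of the 12 markers, 4 ranked above and 4 below the whole first cohort in the single KO libraries. Fewer cells of a type, less RNA per cell and a difference between tables in single genes such as Ttn cannot be told apart. All 7 shared red blood cell genes ranked higher in the single KO libraries than in any first-cohort library, as did 21.7% of all shared genes. The summed level of the 7 was 8161 to 10080 CPM of shared genes against 66.7 to 616 in the first cohort. Of 13 histone genes whose messages lack poly(A) tails, 6 ranked below the first cohort, beside 20.4% of all shared genes. Of 14 macrophage genes 4 did, which was not tested against that share. Among the 4 was Mrc1, whose ranks were 55.1, 41.9 and 51.7 against 81.4 to 90.6. Atrial myosin light chain Myl7 had 1, 1 and 5 counts in the single KO libraries (ranks 0.5, 0.6 and 2.0). Its rank was 80.9 to 98.4 in wild type, 65.0 and 97.6 in CPT2H-KO 1 and 5, and 1.9 to 5.5 in CPT2H-KO 2, 3 and 4. The part of these differences in the results below was not tested except where a value without them is given.

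Over all shared genes the single KO libraries were closer to CPT2H-KO than to wild type. The mean Spearman rho of the 3 libraries was 0.888 ± 0.0025 (SD, n = 5) with wild type and 0.907 ± 0.0136 (SD, n = 5) with CPT2H-KO libraries. The difference of 0.0196 gave p = 0.0159 in a two-sided exact permutation test over the labels of the 10 first-cohort libraries, and the smallest p that test allows is 0.0079. Single KO 1 had rho of 0.8837 to 0.8909 with wild type and of 0.8794 to 0.918 with CPT2H-KO, and those ranges overlapped. For single KO 2 the ranges were 0.8683 to 0.8762 and 0.8856 to 0.9141, without overlap. For single KO 3 they were 0.9026 to 0.9068 and 0.9063 to 0.9398, with CPT2H-KO 1 just inside the wild type range. Taken 1 by 1, the differences of 0.0138, 0.0274 and 0.0177 gave exact permutation p-values of 0.1032, 0.0079 and 0.0238 (0.1032, 0.0237 and 0.0357 after Benjamini-Hochberg adjustment over the 3). Leaving out wild type 1, 2 or 5 raised the exact permutation p of single KO 3 to 0.0556, and leaving out CPT2H-KO 1 gave single KO 1 a difference of 0.0191 (exact permutation p = 0.0079). Each single KO library was most like CPT2H-KO 3 and next most like CPT2H-KO 4, which both lacked the atrial transcript. Without atrial, red blood cell and sex-linked genes the difference was 0.0189 (exact permutation p = 0.0238), and with ranks within classes of length and GC content it was 0.018 (exact permutation p = 0.0397).

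**Figure D1:**
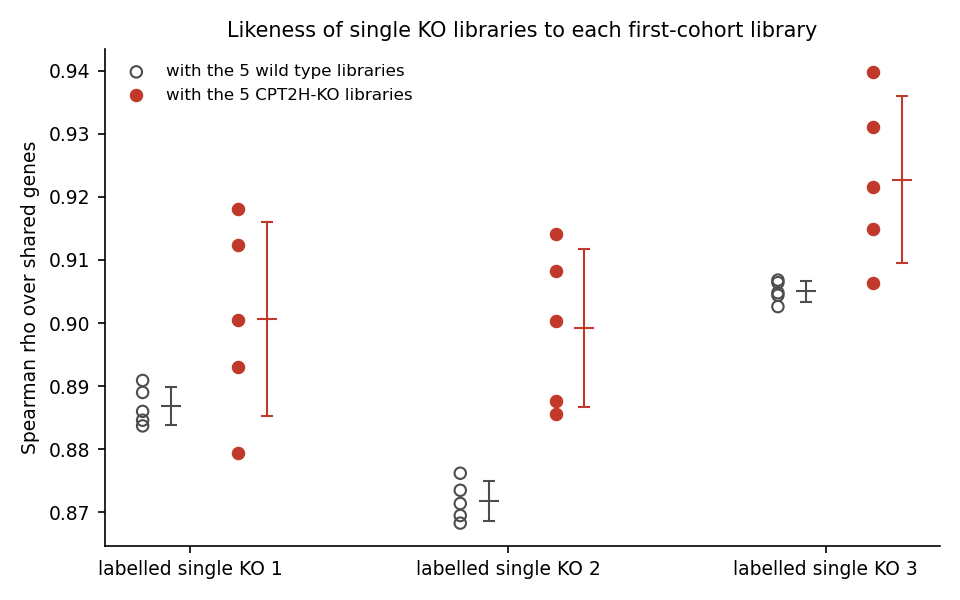
Spearman rho (vertical axis, no unit) between each library labelled single KO (horizontal axis) and each of the 5 wild type (open) and 5 CPT2H-KO (filled) libraries over 12311 shared genes; bars give the mean ± SD. CPT2H-KO values lie above all wild type values for single KO 2, and CPT2H-KO 1 falls among or below the wild type values for single KO 1 and 3.

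By median rho, libraries of 1 table were more alike than libraries of 1 genotype label from different tables. The 3 single KO libraries correlated with each other at 0.9828 to 0.9895, and with the double KO libraries of the same table at 0.9616 to 0.9821. Wild type and CPT2H-KO libraries of the first table correlated at 0.9269 to 0.9719 (median 0.9616), against 0.8794 to 0.9398 (median 0.9083) for single KO with CPT2H-KO libraries. These ranges overlapped through single KO 3, at 0.9398 with CPT2H-KO 3 and 0.9311 with CPT2H-KO 4. The mean difference for the double KO libraries was 0.0142 (exact permutation p = 0.0159), beside 0.0196 for the single KO libraries. That pair of differences was not tested against each other. Over genes called in the first cohort the single KO difference was 0.0545, and over genes not called it was 0.0005. Both are descriptions, since the genes were chosen by the same 10 libraries.

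A call here is an adjusted p under 0.05 in CPT2H-KO against wild type, from edgeR's quasi-likelihood test on the first table alone. Of 14123 genes tested, 4758 were called (33.7%), 2360 higher (16.7%) and 2398 lower (17.0%) in CPT2H-KO. Scaled by library totals alone, the first table gave 5659 calls, of which only 827 were higher. Of the 12302 shared genes tested, 4316 were called (35.1%), the share to set beside the called count of each list below. For each gene the midpoint between the median wild type and the median CPT2H-KO rank was taken, and a gene was placed on the CPT2H-KO side where all 3 single KO ranks lay beyond it. This uses both groups equally and gives no test. The background was 47.9% of all shared genes tested on the CPT2H-KO side and 32.4% on the wild type side. Of 2175 genes called higher, 1214 (55.8%) lay on the CPT2H-KO side and 524 (24.1%) on the wild type side. Of 2141 called lower the numbers were 1196 (55.9%) and 529 (24.7%). Genes not called were at 43.7% and 36.7%.

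The share on the CPT2H-KO side was greatest for genes that were strongly lower in CPT2H-KO. Of 74 genes lower by a log2 fold of 2 or more, 65 (87.8%) lay on the CPT2H-KO side and 4 (5.4%) on the wild type side. Of 119 genes higher by as much, 67 (56.3%) and 16 (13.4%) did. Single KO 1 placed the fewest and single KO 2 the most of these higher genes on the CPT2H-KO side, 59.7% and 84.9%, with single KO 3 at 68.9%. For the strongly lower genes the 3 libraries were closer together, at 90.5%, 91.9% and 93.2%. At a log2 fold of 1 or more, 249 of 447 higher genes (55.7%) and 236 of 348 lower genes (67.8%) were on the CPT2H-KO side for the single KO libraries, beside 49.2% and 48.3% for the double KO libraries, a difference that was not tested.

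**Figure D2:**
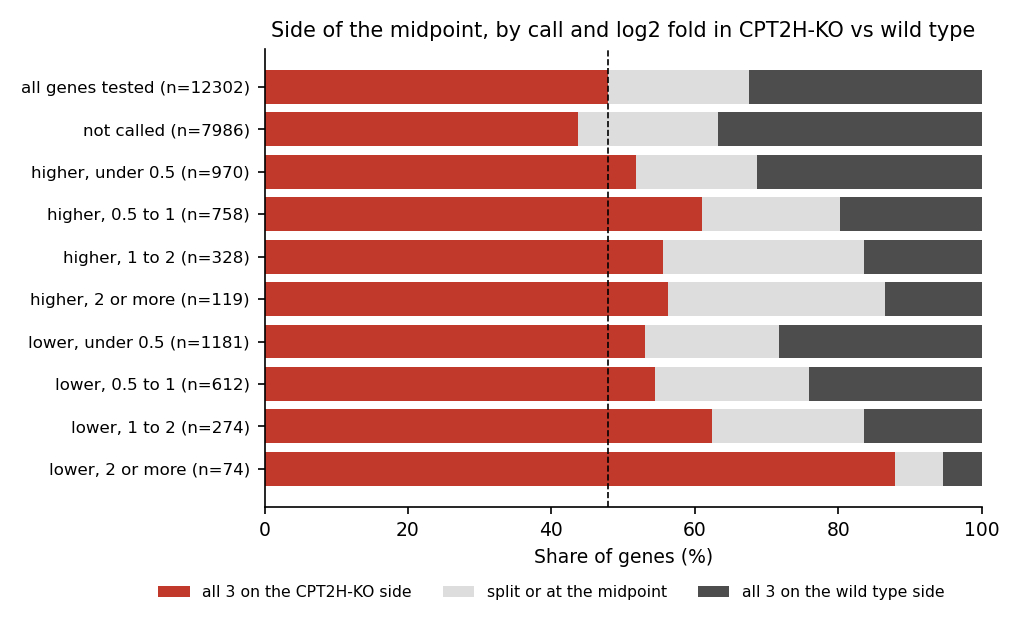
Share of shared genes (horizontal axis, percent) with all 3 single KO ranks on the CPT2H-KO side (red), on the wild type side (dark grey) or split (light grey) of the midpoint, by call and log2 fold change in CPT2H-KO against wild type (rows). The dashed line marks the 47.9% of all genes tested, and the bottom bar, genes lower by a log2 fold of 2 or more, reaches 87.8%.

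A single score showed the same order in each library. Over genes called with a log2 fold of 1 or more, the median rank of the higher genes minus that of the lower genes was -21.94 to -19.12 in wild type and 13.26 to 36.22 in CPT2H-KO libraries. It was 7.65, 19.7 and 12.13 in the single KO libraries. All 3 were above 0 and above every wild type library, 2 were below the lowest CPT2H-KO library, and single KO 2 was inside the CPT2H-KO range. Over all called genes the difference was 10.32, 15.54 and 11.36, all inside the CPT2H-KO range of 9.01 to 18.63 and above wild type, at -11.13 to -6.57. Both scores are descriptions, since their genes were chosen by the same 10 first-cohort libraries. That choice sets the wild type and CPT2H-KO ranges apart, and more so for genes with a log2 fold of 1 or more.

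The genes with the largest changes in CPT2H-KO hearts, 10 each way among genes whose wild type and CPT2H-KO ranks did not overlap (25.8% of all shared genes), were then read library by library. Of the 10 higher genes 9 had all 3 single KO ranks on the CPT2H-KO side, and of the 10 lower genes all 10 did. No single KO rank of these 20 genes lay inside a wild type range. The same numbers, 9 and 10, were found with ranks within classes of length and GC content.

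Gdf15, the stress hormone of the growth differentiation family, had ranks of 2.4, 1.7, 4.5, 1.9 and 14.2 in wild type and 65.7, 60.0, 83.2, 80.4 and 81.0 in CPT2H-KO libraries. In the single KO libraries it had ranks of 52.2, 81.8 and 60.3, all far above wild type, with single KO 1 below the CPT2H-KO range. Nmrk2, a muscle kinase that phosphorylates the NAD precursor nicotinamide riboside, had ranks of 79.0, 92.9 and 94.0. These lay inside the CPT2H-KO range of 66.8 to 94.6 and above the wild type range of 13 to 22.5. Aqp8, a channel for water and hydrogen peroxide, had 62.3, 76.7 and 62.1 against 55.8 to 83.1 in CPT2H-KO and 6.1 to 11.0 in wild type. Each of these genes was high in all 3 single KO libraries. The keratin gene Krt18, also listed as a mesothelial marker, had ranks of 34.1, 47.8 and 39.6, inside a wide CPT2H-KO range of 22.7 to 87.8 and above 3.5 to 6.3 in wild type. The secreted carboxypeptidase-like protein gene Cpxm2 had 88.6, 91.6 and 87.4, against 89.0 to 92.6 and 16.7 to 40.2. Dusp4, a phosphatase of MAP kinases, was the exception, with 12.5, 31.0 and 32.5, between 6.1 to 9.8 in wild type and 27.8 to 79.5 in CPT2H-KO, and single KO 1 on the wild type side.

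Among the lower genes, Aqp4, the water channel, had ranks of 65.0, 43.0, 44.8, 58.0 and 53.0 in wild type and 0.1, 0.0, 0.7, 4.3 and 2.3 in CPT2H-KO libraries. It had ranks of 2.8, 1.1 and 1.0 in the single KO libraries, from 10, 3 and 2 counts. Casq1, the skeletal muscle form of the calcium store protein calsequestrin, had 10.1, 13 and 8.2, against 9.3 to 23.5 in CPT2H-KO and 61.2 to 79.0 in wild type. Hcn4, the pacemaker channel, had 1.2, 4.0 and 1.0, against 1.0 to 3.6 and 32.0 to 37.6. These 3 genes were low in both knockout groups, and wild type did not overlap either. Gpr22, an orphan receptor that is also among the atrial markers, had 23.3, 11.8 and 20.6, against 8.4 to 13.7 and 71.5 to 86.5. Ces1d, a lipid hydrolase, spread widely in both knockout groups, with 48.0, 10.1 and 28.2 in single KO and 2.1 to 69.8 in CPT2H-KO libraries, below 92.2 to 95.6 in wild type.

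**Figure D3:**
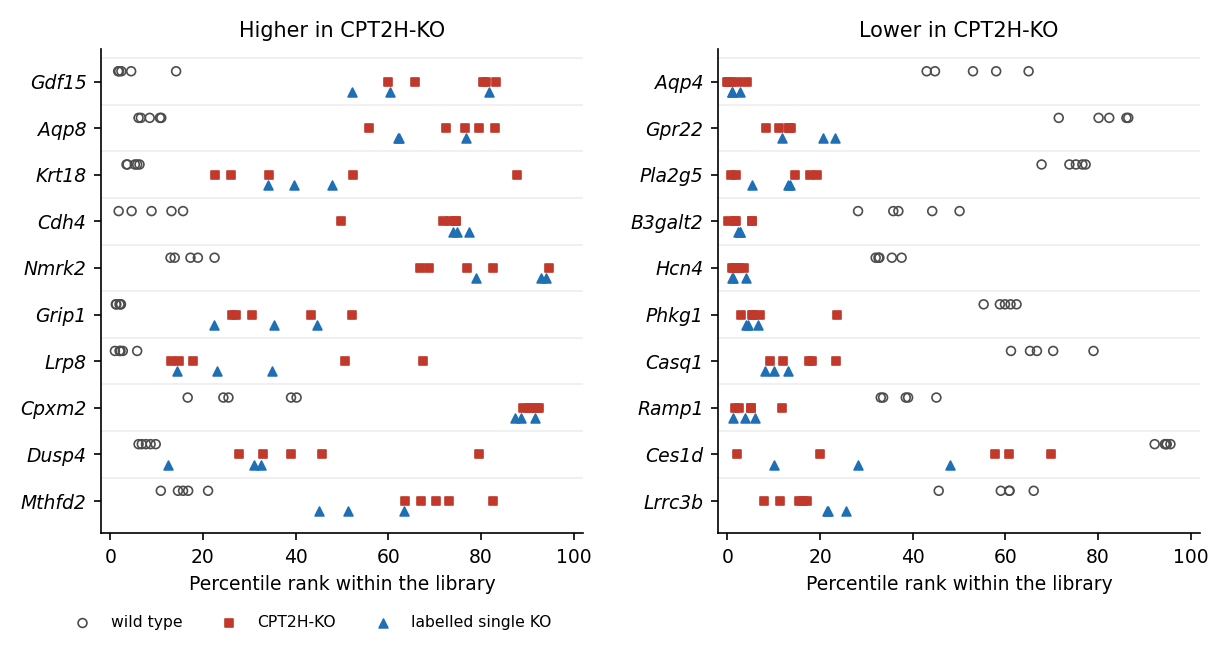
Percentile rank within each library (horizontal axis, 0 to 100) of 20 genes, the 10 most raised and the 10 most lowered in CPT2H-KO hearts (rows), for 5 wild type, 5 CPT2H-KO and 3 single KO libraries, 1 point per library. The single KO points lie with or near the CPT2H-KO points for all but Dusp4, where 1 of 3 lies near wild type at a rank of 12.5.

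Members of the integrated stress response differed in where they lay. Of its 27 shared genes, 16 were higher and 3 lower in CPT2H-KO, and of those 19 called genes 10 (52.6%) lay on the CPT2H-KO side in all 3 single KO libraries, close to the 55.8% of all called genes. The median rank of the list was 39.4, 50.1 and 43.1 in the single KO libraries, above 21.9 to 31.1 in wild type and near the lower end of 43.9 to 65.7 in CPT2H-KO. With ranks within classes of length and GC content 7 of the 19 (36.8%) lay on the CPT2H-KO side and 5 (26.3%) on the wild type side, beside 56.1% and 20% of all called genes. The promoters of 4 called genes held the letters TGATGNAA, the core of the composite element that ATF4 binds with C/EBP proteins. They are shown because the 4 genes were all higher in CPT2H-KO and fell on different sides in the single KO libraries. Each run is the 250 bases before the RefSeq start on GRCm38.p6, 5′ to 3′ on the gene's strand, with the match on either strand in capitals.
Asns, chr6:7693210-7693459, minus strand: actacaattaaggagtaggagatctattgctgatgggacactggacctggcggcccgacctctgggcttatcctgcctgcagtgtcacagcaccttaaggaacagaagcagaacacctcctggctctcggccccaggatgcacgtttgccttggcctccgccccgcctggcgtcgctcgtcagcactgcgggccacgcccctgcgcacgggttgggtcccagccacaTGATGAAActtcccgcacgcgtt
Pycr1, chr11:120643749-120643998, minus strand: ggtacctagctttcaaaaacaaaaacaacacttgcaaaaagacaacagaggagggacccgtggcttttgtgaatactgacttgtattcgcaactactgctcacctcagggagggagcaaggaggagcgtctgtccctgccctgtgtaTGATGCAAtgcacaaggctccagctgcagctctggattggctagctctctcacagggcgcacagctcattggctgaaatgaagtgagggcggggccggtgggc
Atf3, chr1:191183334-191183583, minus strand: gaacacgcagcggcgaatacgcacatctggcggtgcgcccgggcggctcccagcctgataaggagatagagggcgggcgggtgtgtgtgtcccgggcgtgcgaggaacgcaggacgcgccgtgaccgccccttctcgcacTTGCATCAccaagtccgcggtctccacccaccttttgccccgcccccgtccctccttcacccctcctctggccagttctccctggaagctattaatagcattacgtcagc
Chac1, chr2:119350992-119351241, plus strand: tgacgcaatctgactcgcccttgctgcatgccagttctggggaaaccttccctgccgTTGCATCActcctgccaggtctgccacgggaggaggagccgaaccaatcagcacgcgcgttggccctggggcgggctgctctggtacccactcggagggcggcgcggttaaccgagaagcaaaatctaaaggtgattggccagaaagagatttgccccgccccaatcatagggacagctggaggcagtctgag

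The match began 23 bases before the start in Asns, 103 in Pycr1, 110 in Atf3 and 193 in Chac1, the last pair on the opposite strand. Of the 15 genes of the list called higher with a window, 4 (26.7%) held the letters, beside 2.43% of the 9705 shared genes with one; a match is a description of the letters, not a binding site. Asns, which makes asparagine, had ranks of 34.7, 34.3 and 43.1 in the single KO libraries. These lay above 10.8 to 15.4 in wild type and below 43.9 to 75.2 in CPT2H-KO. Pycr1, an enzyme of proline synthesis, had 14.5, 13.7 and 20.8, inside the CPT2H-KO range of 12.9 to 25.4 and above 1.7 to 7.2 in wild type. Atf3, a stress-induced transcription factor, had 20.2, 33.4 and 26.3 against 27.3 to 48.7 in wild type and 29.1 to 94.8 in CPT2H-KO, on the wild type side in all 3. Chac1, which degrades glutathione, had 16.9, 30.6 and 6.2 against 20.8 to 31.1 and 34.5 to 65.4, with none inside the CPT2H-KO range. Of these genes with the same letters, Pycr1 resembled CPT2H-KO, Asns lay between the groups, and Atf3 and Chac1 had no rank above the wild type range.

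Other members of the response differed in degree. Mthfd2, the mitochondrial one-carbon enzyme, had ranks of 45.0, 51.3 and 63.3 in the single KO libraries, between 10.9 to 21.1 in wild type and 63.6 to 82.6 in CPT2H-KO. Aldh18a1, the first enzyme of proline synthesis, had 58.9, 71.3 and 61.4, on the CPT2H-KO side (66.4 to 76.3) of wild type (37.8 to 46.7). Atf5, a transcription factor of the mitochondrial stress response, had 80.4, 83.5 and 75.2, above CPT2H-KO (57.7 to 70.8) as well as wild type (33.2 to 42.1). Trib3, a pseudokinase that ATF4 induces, had 12.9, 28.1 and 15.4, against 6.9 to 10.5 in wild type and 22.9 to 62.8 in CPT2H-KO.

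Genes of fuel handling were placed much like called genes in general. Of 23 shared targets of the fatty acid sensor PPAR-alpha and lipid handling genes, 11 were higher and 2 lower in CPT2H-KO, and 8 of those 13 (61.5%) lay on the CPT2H-KO side and 1 on the wild type side, beside 55.8% of all called genes. With ranks within classes of length and GC content 6 of the 13 (46.2%) did, beside 56.1%. Acot2, a mitochondrial acyl-CoA thioesterase, had ranks of 96.0, 96.1 and 95.5, against 95.2 to 96.9 in CPT2H-KO and 83.0 to 89.2 in wild type. Pdk4, the kinase that shuts off pyruvate dehydrogenase, was near the top in every library, with 98.8, 99.5 and 99.2 in single KO, 97.7 to 98.8 in wild type and 99.8 to 99.9 in CPT2H-KO. By these ranks no single KO library reached the CPT2H-KO level of Pdk4. Within the classes of length and GC content Pdk4 stood at 98.5, 99.9 and 99.6 in single KO libraries. There it was 99.9 in CPT2H-KO and 97.0 to 98.7 in wild type, so single KO 2 was level with CPT2H-KO. G0s2, an inhibitor of the triglyceride lipase encoded by Pnpla2, was lower in CPT2H-KO (27.7 to 38.3) than in wild type (50.4 to 68.7) and stood at 82.1, 73.0 and 51.8 in the single KO libraries, none of them low.

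Of 22 shared genes of mitochondrial fatty acid oxidation, 5 were higher and 4 lower in CPT2H-KO. Of these 9, 6 (66.7%) lay on the CPT2H-KO side, beside 55.8% of all called genes. Acadl, the long-chain acyl-CoA dehydrogenase, had ranks of 99.3, 99.1 and 99.4, against 99.2 to 99.4 in CPT2H-KO and 98.4 to 98.8 in wild type. Acadm, the medium-chain enzyme, had 98.9, 98.6 and 99, against 99 to 99.2 and 99.4 to 99.5. In both knockout groups Acadl thus ranked above and Acadm below every wild type library. All these ranks lie near the top of the library, where ranks separate genes poorly. Cpt1b, the muscle form of the outer membrane carnitine enzyme, ranked 99.5 in every single KO library and 42.5 to 58.4 in the first cohort. Cpt1b overlaps another gene, and the sources used here do not say how reads of overlapping genes were counted.

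By rank over all shared genes, most genes of branched-chain amino acid breakdown that were lower in CPT2H-KO were low in the single KO libraries too. Of 19 shared genes, 10 were lower and none higher in CPT2H-KO, and 8 of the 10 lay on the CPT2H-KO side, beside 55.8% of all called genes. Ppm1k, the phosphatase that activates the branched-chain ketoacid dehydrogenase, had ranks of 44.4, 42.9 and 53.0, below CPT2H-KO (61.4 to 78.7) and wild type (91.6 to 95.7). Acadsb, which oxidises short branched acyl chains, had 78.0, 77.1 and 82.3, against 79.8 to 86.3 in CPT2H-KO and 90.8 to 92.9 in wild type. Aldh6a1, an enzyme of valine breakdown, had 89.0, 87.3 and 92.3, against 88.6 to 92.5 and 95.0 to 96.3. The exceptions were Bckdk, the inhibitory kinase of the same dehydrogenase, at 90.2, 90.1 and 88.6 against 80.0 to 83.0 in CPT2H-KO and 85.4 to 88.0 in wild type, and Bckdhb, a subunit of it, at 60.8, 61.7 and 68.1 against 46.7 to 58.9 and 56.6 to 69.0. With ranks within classes of length and GC content, 6 of the 10 (60%) lay on the CPT2H-KO side, near the 56.1% of all called genes. On that scale 0 of the 10 lay on the wild type side, beside 20%.

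The respiratory chain was lower as a block in CPT2H-KO and was not placed as a block in the single KO libraries. Of 37 shared nuclear genes of complex I, 34 were lower in CPT2H-KO, of which 17 (50%) lay on the CPT2H-KO side and 11 (32.4%) on the wild type side. Of 38 nuclear genes of complexes III to V, 32 were lower and 1 higher, with 15 (45.5%) on the CPT2H-KO side and 12 (36.4%) on the wild type side. Over all called genes these shares were 55.8% and 24.4%. The median rank of complex I genes was 96.9, 96.2 and 96.4 in the single KO libraries, in or above 95.7 to 96.3 in wild type and above 93.4 to 95.2 in CPT2H-KO. Core subunits were among those that followed CPT2H-KO. Ndufs1 had ranks of 97.7, 97.4 and 98.4, against 98.3 to 99.1 in CPT2H-KO and 99.3 to 99.4 in wild type. Ndufv1, the NADH-binding subunit, had 98.4, 98.2 and 98.2, against 98.1 to 98.7 and 99.1 to 99.2. Among mitophagy genes 7 were higher and 6 lower in CPT2H-KO. Of these 13, 7 (53.8%) lay on the CPT2H-KO side, close to the 55.8% of all called genes. Optn, a receptor that links damaged mitochondria to autophagosomes, had 93.2, 94.3 and 94.4, against 93.3 to 95.7 in CPT2H-KO and 79.9 to 87.8 in wild type. Pink1, the kinase that starts mitophagy, had 97.8, 97.1 and 97.0, between 94.8 to 96.9 in CPT2H-KO and 98.2 to 98.8 in wild type.

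Most ion channel genes that were lower in CPT2H-KO were low in the single KO libraries too. Of 23 shared genes of ion channels and gap junctions, 16 were lower and 2 higher in CPT2H-KO. Of these 18, 12 (66.7%) lay on the CPT2H-KO side and 3 on the wild type side, beside 55.8% of all called genes on the CPT2H-KO side. With ranks within classes of length and GC content 15 (83.3%) and 0 did, beside 56.1%. The difference from other genes was not tested. Kcnj2, the main inward rectifier potassium channel, had ranks of 43.9, 38.7 and 51.5, against 36.4 to 64.4 in CPT2H-KO and 80.4 to 91.2 in wild type. Kcnd3, a transient outward potassium channel, had 30.4, 27.3 and 32.5, against 20.9 to 44.7 and 54.7 to 58.9. Cacna1g, a T-type calcium channel, had 42.8, 48.1 and 37.6, against 41.0 to 50.2 and 61.8 to 74.8. In each of these 3 channels all single KO libraries were below all wild type libraries. Kcnh2, the hERG potassium channel, did not follow: it had 88.6, 84.5 and 84.6, against 60.2 to 70.5 in CPT2H-KO and 80.7 to 86.7 in wild type.

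Contractile genes sit so near the top of every library that ranks separate them poorly. Of 23 shared genes of adult contraction and calcium handling, 12 were lower and 3 higher in CPT2H-KO. Of these 15, 6 (40%) lay on the CPT2H-KO side and 4 (26.7%) on the wild type side, beside 55.8% and 24.4% of all called genes. With ranks within classes of length and GC content 3 (20%) and 1 (6.67%) did, beside 56.1% and 20%. Trdn, the calcium release complex protein triadin, had 91.3, 89.2 and 90.6, below 93.2 to 94.8 in CPT2H-KO and 96.8 to 97.4 in wild type. Of 19 shared fetal and hypertrophy genes, 10 were higher and 2 lower in CPT2H-KO, with 6 of the 12 (50%) on the CPT2H-KO side. Acta1, skeletal alpha-actin, had ranks of 99.8, 99.9 and 99.8, against 99.8 to 99.9 in CPT2H-KO and 95.0 to 98.9 in wild type. Nppb, the B-type natriuretic peptide, had 96.0, 98.6 and 98.8, against 97.7 to 99.2 and 80.8 to 96.9. Myh7, the fetal myosin heavy chain, was not called in CPT2H-KO (log2 fold change 1.27, SE 0.55, adjusted p = 0.0968). It had 71.9, 88.9 and 52.1 in the single KO libraries, below every first-cohort library (91.0 to 99.5).

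Extracellular matrix genes varied between the single KO libraries. Of 34 shared genes 26 were higher in CPT2H-KO and none lower, and 10 (38.5%) of the 26 lay on the CPT2H-KO side, under the 55.8% of all called genes, and 7 on the wild type side. Single KO 2 had the highest rank of the 3 for 29 of the 34 genes. Of 12 fibroblast markers 5 ranked below the whole first cohort in the single KO libraries and 1 above it, beside 20.4% and 21.7% of all shared genes. The summed level of these markers was 3634 to 4443 CPM of shared genes, against 3811 to 5396 in wild type and 4384 to 6615 in CPT2H-KO, and its part in the placement of matrix genes was not tested. Cilp, a matrix protein of cardiac fibroblasts, had ranks of 78.7, 94.5 and 81.7, against 89.5 to 97.7 in CPT2H-KO and 58.6 to 71.8 in wild type. Bgn, the proteoglycan biglycan, had 98.6, 99 and 98.5, against 97.1 to 98.7 and 92.5 to 94.8. Tnc, the injury matrix protein tenascin C, had 37.0, 37.6 and 35.3, above 18.2 to 29.3 in wild type and below 38.9 to 83.5 in CPT2H-KO. With ranks within classes of length and GC content the count turned to 7 on the CPT2H-KO side and 8 on the wild type side.

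Cell cycle genes also set the single KO libraries apart from each other. Of 26 shared genes 6 were higher and 1 lower in CPT2H-KO, with 5 of the 7 (71.4%) on the CPT2H-KO side and 0 on the wild type side. All called genes were at 55.8% and 24.4%, and the difference was not tested. With ranks within classes of length and GC content 4 of the 7 (57.1%) lay on the CPT2H-KO side, beside 56.1% of all called genes. Single KO 2 had the highest rank for 25 and single KO 3 the lowest for 25 of the 26 genes. Mcm2, a subunit of the replicative helicase, had 66.5, 78.0 and 63.0, against 49.9 to 70.1 in CPT2H-KO and 27.3 to 29.5 in wild type. Mki67, the proliferation marker, had 64.5, 68.6 and 33.8, against 35.0 to 72.7 in wild type and 33.9 to 81.4 in CPT2H-KO. The replication gene Mcm2 thus separated all 3 from wild type, and Mki67 did not.

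**Figure D4:**
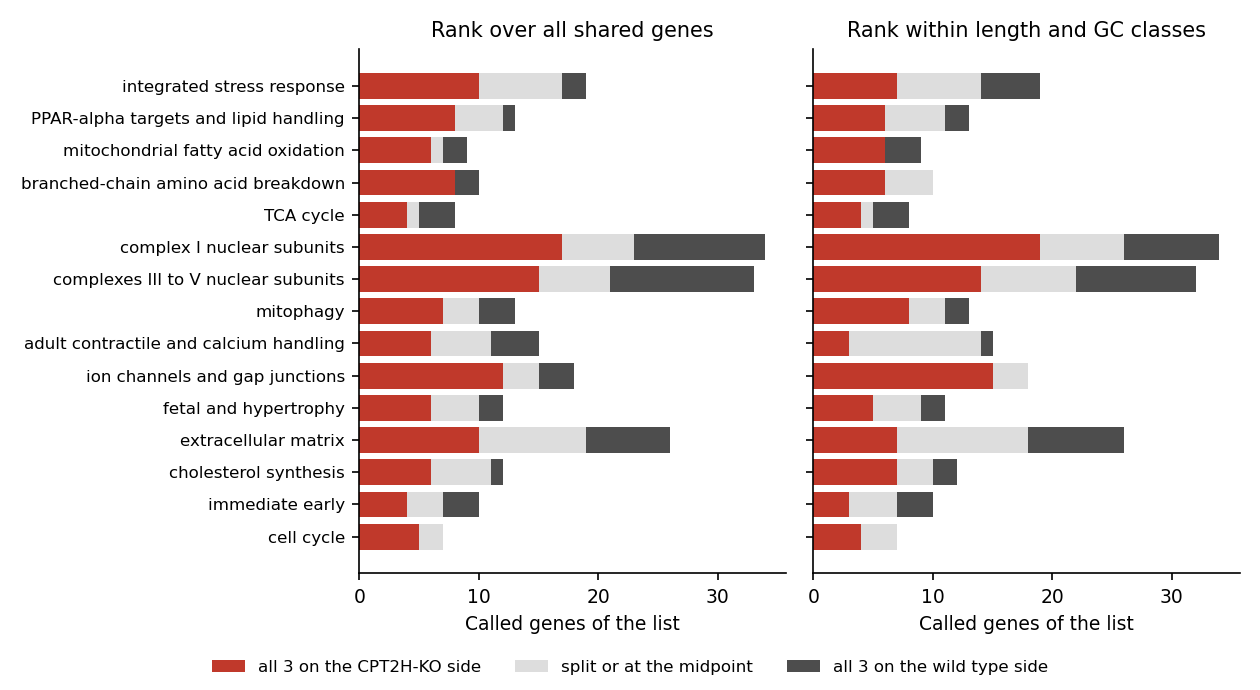
Number of genes called in CPT2H-KO against wild type (horizontal axis) in 15 lists (rows), split by whether all 3 single KO ranks lie on the CPT2H-KO side (red), on the wild type side (dark grey) or neither (light grey), by rank over all shared genes (left) and by rank within 25 classes of exon length and GC content (right). Ion channels go from 12 to 15 of 18 on the CPT2H-KO side, and extracellular matrix genes from 10 to 7 of 26.

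Ratios of 2 genes within a library need no scaling between tables, and 36 pairs were read as log2 ratios of counts with 0.5 added. In 24 pairs all 3 single KO libraries lay on the CPT2H-KO side of the midpoint, in 7 on the wild type side, and 5 were split. In 25 pairs wild type and CPT2H-KO did not overlap, and there 17 pairs lay on the CPT2H-KO side and 3 on the wild type side. No share over pairs chosen otherwise was computed. For single genes by rank, 25.8% of shared genes did not overlap, and 47.9% of those tested lay on the CPT2H-KO side. The 17 included Cpt2 over Cpt1b and Nppb over Ttn, and the 3 included Tcap over Ttn. In each of these pairs all 3 single KO libraries lay beyond both groups. Cpt1b and Ttn themselves differed between the tables, so the side of such a pair does not show likeness to a group. Among pairs that overlap, 2 counted on the CPT2H-KO side went to the wild type side in all 3 libraries when 1 first-cohort library was left out. These were Myh7 over Myh6, without CPT2H-KO 3, 4 or 5, and Usp30 over Usp8, without wild type 1, 2 or 5 or CPT2H-KO 1, 2 or 3. For 11 of the 25 the single KO range overlapped CPT2H-KO and not wild type, for 2 the reverse held, for 9 it overlapped neither and for 3 both. The exact permutation p-values below are two-sided, from 108 tests in all and not adjusted over the pairs, which were chosen with earlier results known. The smallest possible is 0.0079 for 5 against 5 libraries and 0.0179 for 3 against 5. Tests of single KO libraries against either group compare different tables, so in them table and cohort cannot be told apart from genotype. The smallest p against wild type was reached by many kinds of pair. Among them were Usp30 over Usp8 and Hk1 over Hk2, and Tcap over Ttn, which lay away from CPT2H-KO.

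Acta1 over cardiac actin Actc1 was -5.71, -3.94, -4.61, -5.09 and -4.6 in wild type and -0.67, -0.83, -1.33, -1.45 and -1.62 in CPT2H-KO libraries. In the single KO libraries it was -1.4, -0.42 and -1.44, apart from wild type (exact permutation p = 0.0179) and not apart from CPT2H-KO (exact permutation p = 0.7321). Skeletal actin was high in all 3, and single KO 2 lay above the highest CPT2H-KO library. Aqp4 over Aqp1, the endothelial water channel, was -4.66 to -3.61 in wild type, -13.58 to -8.41 in CPT2H-KO and -9.57, -11.27 and -11.19 in single KO libraries (exact permutation p = 0.9464 against CPT2H-KO). Nmrk2 over Nmrk1, its widely expressed relative, was -0.8 to 0.48, then 3.26 to 6.28, then 3.92, 5.88 and 5.91 (exact permutation p = 0.3214 against CPT2H-KO). Casq1 over the cardiac form Casq2 was -5.47 to -4.38, then -8.56 to -7.09, then -8.23, -8.12 and -9.11 (exact permutation p = 0.2857 against CPT2H-KO). In these 3 pairs too every single KO library lay outside the wild type range, with exact permutation p = 0.0179 against wild type. Col1a1 over the endothelial gene Pecam1 was -0.79 to 0.25 in wild type, 0.75 to 1.74 in CPT2H-KO and 1.06, 1.91 and 0.82 in single KO libraries. Cox7a1 over Cox7a2, the muscle and liver forms of a cytochrome oxidase subunit, was 0.52 to 0.93, then -0.33 to 0.34, then 0.04, -0.04 and -0.06. Both differed from wild type (exact permutation p = 0.0179), and neither from CPT2H-KO (exact permutation p = 0.8571 and 0.4821). A p that misses the threshold does not show that the groups are alike.

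Some ratios gave an intermediate or an opposite answer. Mthfd2 over cytosolic Mthfd1 was -3.85 to -2.57 in wild type, -0.61 to 0.85 in CPT2H-KO and -1.29, -1.13 and -0.7 in single KO libraries, apart from both (exact permutation p = 0.0179 and 0.0357). Pdk4 over Pdk2, a paralogous kinase, was 1.17, 0.86, 1.52, 1.79 and 1.77 in wild type and 4.11, 3.93, 3.81, 4.12 and 4.05 in CPT2H-KO libraries. In the single KO libraries it was 0.57, 1.59 and 1.18, in or below the wild type range (exact permutation p = 0.3929 against wild type and 0.0179 against CPT2H-KO). Cpt2 over Acadm was -2.75 to -2.24 in wild type, -3.24 to -2.69 in CPT2H-KO and -2.08, -2.03 and -2.5 in the libraries labelled single KO, again in or above the wild type range (exact permutation p = 0.1786 against wild type and 0.0179 against CPT2H-KO). Ratios over the longest gene, Ttn, moved with the table: Tcap over Ttn, lower in CPT2H-KO than in wild type, was -3.72, -4.18 and -4.19 in single KO libraries and -7.1 to -6.44 in wild type. Gdf15 over Gapdh was -8.22, -6.69 and -7.85 in the single KO libraries, near wild type (-8.99 to -6.88) and below CPT2H-KO (-4.16 to -2.39). The rank of Gdf15 itself was on the CPT2H-KO side. Ratios were also taken over the median count of the library in place of the second gene. Gdf15 then lay on the CPT2H-KO side in 3 of 3 single KO libraries, Cpt2 and Tcap in 2 of 3 and Pdk4 in 0 of 3. Slc2a1 went the other way, from 3 of 3 over Slc2a4 to 0 of 3. The side of such ratios thus depended on the gene divided by.

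**Figure D5:**
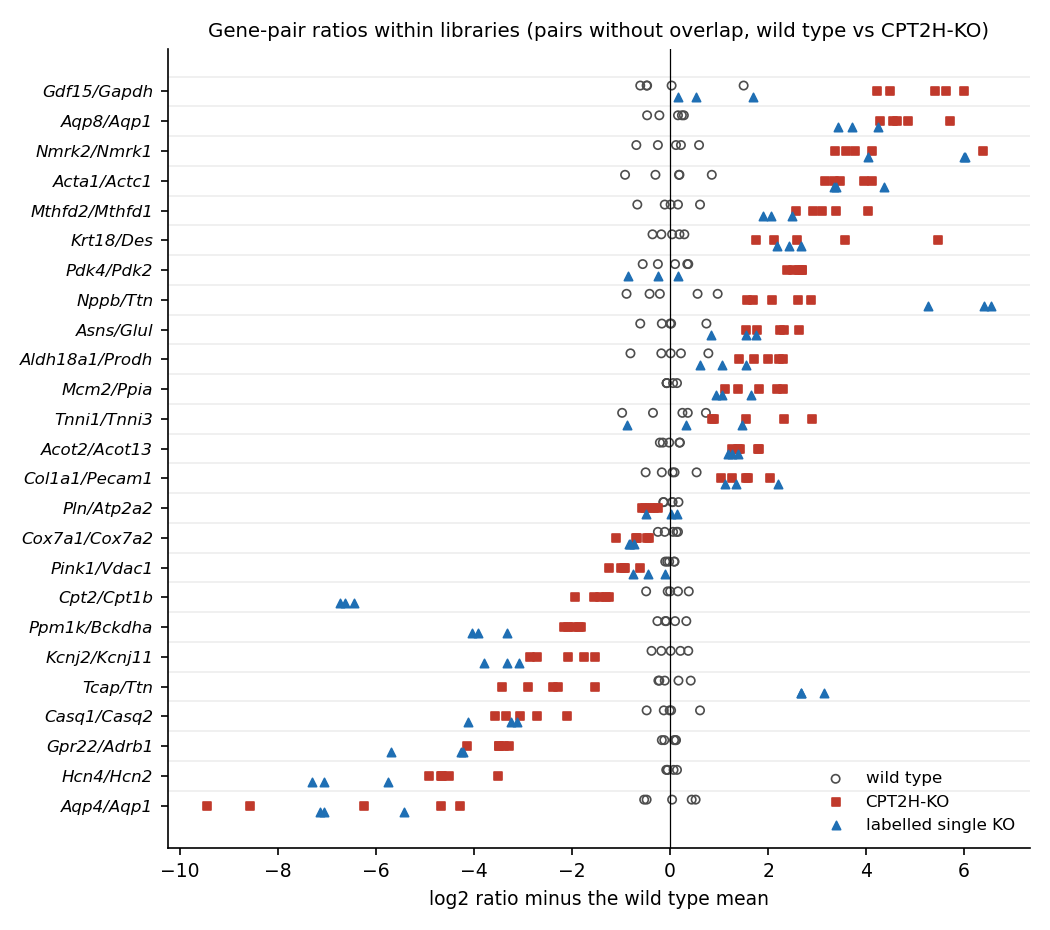
Log2 ratio of 2 genes within a library minus the wild type mean (horizontal axis, log2 units) for the 25 pairs whose wild type and CPT2H-KO libraries do not overlap (rows), 1 point per library. The single KO triangles lie among the CPT2H-KO squares for Acta1/Actc1 and Col1a1/Pecam1, at the wild type circles for Pdk4/Pdk2 and Gdf15/Gapdh, and beyond both groups for Nppb/Ttn and Cpt2/Cpt1b.

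Genes that changed in CPT2H-KO and stood on the wild type side in the single KO libraries were listed by how far they lay from the midpoint, 10 each way among genes with a log2 fold of 1 or more. This list was chosen by these ranks, so they are a description. The 10 higher genes were long and poor in GC, with a median exon length of 12632 bases and a median GC content of 44.7%, and the 10 lower genes were short and rich in GC, at 2812 bases and 57.9%. Dmxl2, a large scaffold of the vesicular proton pump, had ranks of 82.9, 84.5 and 89.7, against 85.2 to 91.6 in wild type and 96.4 to 97.1 in CPT2H-KO. Xirp2, an actin-binding protein of the intercalated disc, had 98.4, 99.2 and 99.1, under both 99.4 to 99.6 and 99.7 to 100. Adrb1, the main cardiac beta-adrenergic receptor, was lower in CPT2H-KO (21.3 to 27.1) than in wild type (31.7 to 45.0) and had 56, 60.0 and 48.5. With ranks within classes of length and GC content, 8 of the 10 higher genes and 4 of the 10 lower genes were still on the wild type side in all 3 libraries, and 0 of the 20 had moved to the CPT2H-KO side in all 3.

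Many genes resembled neither group. All 3 single KO ranks lay above all 10 first-cohort ranks for 2667 genes (21.7%) and below them for 2507 (20.4%). Genes above had a median exon length of 3544 bases and a GC content of 55%, genes below 7380 bases and 44.4%, and the rest 4455 bases and 49.8%. Across 12279 genes, which are not independent replicates, the rank difference between single KO and first-cohort libraries had a Spearman rho of 0.578 with GC content and -0.345 with exon length. Ranks within classes of length and GC content lowered the number outside from 5174 to 3895. Among the 10 genes not called in CPT2H-KO that lay farthest above were the ribosomal protein genes Rpl13a (97.6, 96.9 and 97.0 against 26.3 to 36.7) and Rpl24 (95.2, 94.2 and 94.5 against 26.2 to 38.3). Genes of this family have near-identical copies, so their counts are uncertain. Farthest below were Lrrc24, a leucine-rich repeat gene, at 7.4, 5.6 and 3.6 against 63.9 to 71.0, and Uhmk1, a kinase of splicing factors, at 18, 16.9 and 23.5 against 79.4 to 85.0. The histone gene Hist1h1e was also among the 10 farthest below, at 5.3, 5.8 and 5.7 against 42.9 to 66.1.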

How the data were processed

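RNA was sequenced from 13 hearts used here, 1 library each per the labels, with groups read from the sample titles. The authors deposited 2 tables of raw counts per gene, whole numbers with no normalization. Per the labels' protocols, RNA was column-purified and DNase-treated, and libraries were stranded, after ribosomal RNA was removed. The submitters' processing notes name bcl2fastq, HISAT2, DESeq2 1.42.0 and mm10. The sources used here do not say which program counted reads, on which annotation and with which strand rule. Overlapping, antisense and near-identical genes are therefore uncertain. Nothing says whether hearts shared litters, so each p-value measures spread among samples, which may be technical.

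Symbols turned into dates (20 and 25 rows), repeated symbols (8 and 2 rows), 1 row with no symbol and 27 mitochondrial genes were left out of the shared genes. Calls in CPT2H-KO against wild type came from edgeR 4.0.16 in R 4.3.3 on the first table alone (filterByExpr, TMM, quasi-likelihood test, Benjamini-Hochberg, threshold 0.05). SE is the log2 fold change over the square root of F. Ranks, Spearman rho, midpoints and ratios (0.5 count added) were computed in Python 3.11.15 with pandas 2.3.3, numpy 2.4.6 and scipy 1.17.1. Exact permutation tests are two-sided. CPM of shared genes divides counts by the library's shared total. Exon length, GC content and positions are from GENCODE M21 on GRCm38, and 99.7% of shared genes matched. Promoters are from RefSeq on GRCm38.p6, matched by symbol for 9705 shared genes. The calls and placements were tested on simulated data. No 2 libraries of a group were duplicates: chi-square per degree of freedom between their counts was 7.11 or more.

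Members, gene lists and the 36 pairs were chosen with earlier results of these data known. Named genes are Cpt2, Usp30, the paired genes and the 10 with the largest log2 fold each way among called shared genes whose ranks do not overlap, at a mean log2 CPM of 1 or higher, predicted and sex-linked genes aside. Added are the 10 each way farthest on the wild type side, the 10 each way farthest outside the first cohort, up to 4 members of each list by smallest p, list members on the wild type side, and 13 heart and mitochondrial genes. Not every gene chosen this way is reported here. Atf5, Chac1, Kcnd3, Mrc1, Pycr1 and Trib3 fall outside that rule and were named after their values were seen. Ranks within 25 classes of length and GC content, the atrial covariate and ratios over the median count were chosen after seeing the data.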

Additional observations from a re-analysis of the deposited data

Results flagged for a closer look

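Among 80 groups of 5 libraries (log2 ratios within libraries and rho values with the single KO libraries), 4 held 1 library far from the rest by Dixon's criterion, which chance meets in about 1 of 20 groups. In CPT2H-KO, log2 Usp30/Usp8 was lowest in library 5 at -2.2, with the others from -1.96 to -1.91. In wild type, log2 Cpt1a/Cpt1b was lowest in library 2 at 0.23, with the others from 2.22 to 2.5. In CPT2H-KO, log2 Nmrk2/Nmrk1 was highest in library 1 at 6.28, with the others from 3.26 to 4.02. In CPT2H-KO, log2 Gpr22/Adrb1 was lowest in library 4 at -1.89, with the others from -1.24 to -1.03. The 3 CPT2 single KO libraries are too few for this criterion.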

How the results depend on the processing

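With the level of 3 atrial genes as a covariate, calls in CPT2H-KO went from 4758 to 3103, and the genes placed on the CPT2H-KO side to 788 of 1499 called higher (52.6%) and 736 of 1310 called lower (56.2%). With a log2 fold of at least 1 they were 249 and 236, since fewer genes enter. Over genes not called, the likeness difference was 0.0005 in the mean and -0.0009 and -0.0004 for single KO 1 and 3, and these genes were chosen on the same libraries. Other settings kept the total counts within 1.5 times and the likeness of the mean in direction and past the threshold. Library totals alone gave 5659 calls, with 827 higher in place of 2360. DESeq2 gave 5401 calls, DESeq2 size factors 4717 and no filter on low counts 4760. Thinning to 1 depth gave a likeness difference of 0.0197, Pearson's r 0.0271 and genes with at least 50 counts 0.0253. Leaving out 1 library at a time gave 3682 to 4787 calls, a likeness difference of 0.0155 to 0.0239, 996 to 1343 higher and 927 to 1306 lower genes on the CPT2H-KO side, 22 to 25 ratios and 5482 to 6317 genes outside the first cohort. With the replicate number as a replicate block, 4179 genes were called, 2061 of them higher, and 1093 higher and 1100 lower genes lay on the CPT2H-KO side. Same-numbered libraries deviated together weakly (correlations of 0.111, 0.07, 0.098, 0.23 and -0.087), and numbers 1 and 4 alone correlated best with their own. Nothing says whether equal numbers mark a pair, and these correlations cannot settle it. Genes outside the first cohort numbered 5189 on TMM-scaled counts, 4948 after thinning and 4479 with at least 50 counts. Depth limits the lowest genes most, since the single KO libraries hold 10886245 to 13312980 shared counts and Aqp4, Hcn4 and Myl7 rest on 1 to 13 of them.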
